A study of Danio rerio with 32 samples.

Results

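The change between 12 h and 24 h in the livers of nrf2 knockout (KO) zebrafish larvae exposed to acetaminophen (APAP) was measured by RNA sequencing. KO APAP livers at 24 h, in 4 libraries, were compared with KO APAP livers at 12 h, in 4 libraries, and these 8 libraries belong to a series of 32. The other 24 libraries, 4 per group, are KO livers with dimethyl sulfoxide (DMSO, the solvent) and wild-type (WT) livers with APAP or DMSO, each at 12 h and 24 h. Every library came from 20 dissected and pooled livers, so no group holds single animals. The labels used here give no APAP dose, no larval age, no mutant allele, no sex and no starting point for the hours. All 32519 Ensembl genes of the count table entered, and the 11384 with enough counts were tested.

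APAP is an analgesic that hepatocytes clear mainly by conjugation with sulfate or glucuronic acid. At high dose, cytochrome P450 enzymes turn part of it into a reactive quinone imine that uses up glutathione, binds mitochondrial proteins and kills hepatocytes. Genes of glutathione synthesis, quinone reduction and conjugation are under the control of the transcription factor Nrf2, which Keap1 holds in check. The comparison of 24 h with 12 h asks how an APAP-exposed liver lacking this factor changes over time.

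Total counts in the 8 KO APAP libraries lay between 4489494 and 5622540. One library stood apart, as the plot of detected genes shows. KO APAP 12 h replicate 2 had at least 1 count for 4129 genes, against 11340 to 12192 in the other 3 libraries at 12 h and 10459 to 12371 at 24 h. In that library 2781 tested genes had no count although each of the other 3 held at least 10, and it gave the lowest of the 4 values at 12 h for 6681 of the 11384 tested genes and the highest for 1651. Results are therefore given with all libraries and without it. Most hepatocyte markers were abundant in all 8 libraries, with fabp10a, the liver fatty acid-binding protein, between 11956 and 36161 CPM (counts scaled to a common library size) and the transferrin gene tfa between 3293 and 6848 CPM. Of the 11 markers only the haptoglobin gene hp, at 0 to 7.92 CPM, and ahsg1, at 10.3 to 109 CPM, were low. Exocrine pancreas markers held 2.04% to 4.88% of the counts in the 8 libraries, beside 4.61% to 8.17% for hepatocyte markers. In KO DMSO the pancreas share was 1.54% to 5.85% at 12 h and 5.13% to 8.57% at 24 h. Its part in the gene results was not tested. The labels do not say that libraries of a group came from separate clutches, so p-values measure the spread between these libraries.

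**Figure D1:**
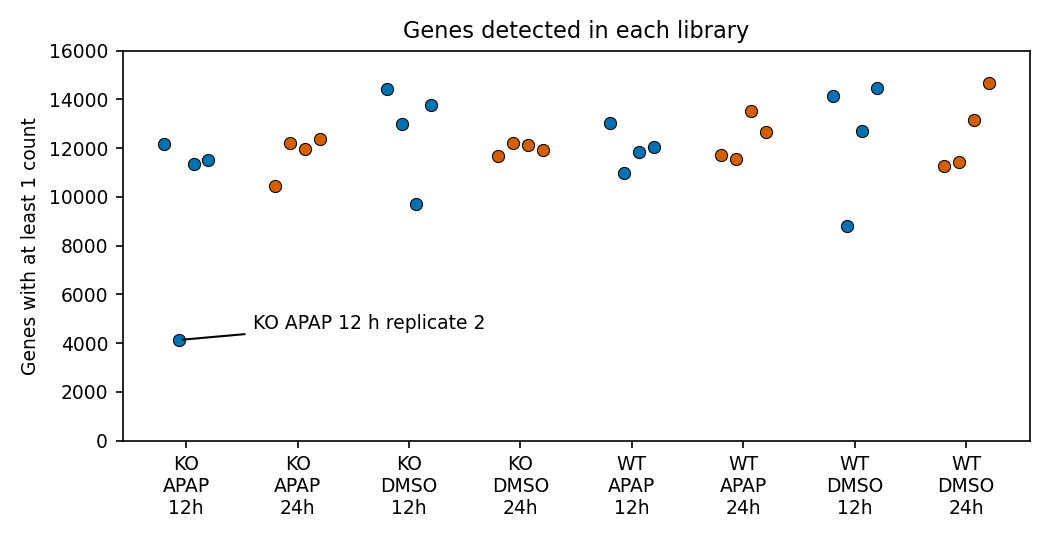
Genes with at least 1 count (y axis) in each of the 32 libraries, in 8 groups of 4 (x axis; blue 12 h, orange 24 h, 1 point per library). KO APAP 12 h replicate 2 lies at 4129, and the other 7 KO APAP libraries lie between 10459 and 12371.

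Zebrafish carry 2 copies of the gene, and the labels used here do not say which is mutated, so neither level checks the knockout. NFE2L2 (ENSDARG00000042824), the copy listed under the symbol of human NRF2, had 41.2, 6.1, 36.7 and 38.4 CPM at 12 h and 30.7, 41.1, 34.5 and 31.2 CPM at 24 h, in the order of replicates 1 to 4 that is used throughout. Replicate 2 at 12 h was the low value, and the other 7 libraries overlapped. The log2 fold change of 24 h against 12 h was 0.17 ± 0.38 (SE; edgeR adjusted p = 0.921), and it was -0.16 without replicate 2 (adjusted p = 0.958). The mean in KO DMSO was 40.4 ± 2.6 CPM at 12 h and 42 ± 9.42 CPM at 24 h (SD, n = 4), and that in WT APAP was 50.5 ± 7.25 and 54.2 ± 20.2 CPM. The other copy, nfe2l2b, had 15.6, 0, 4.8 and 1.93 CPM at 12 h and 5.8, 5.47, 3.14 and 0.709 CPM at 24 h. The Keap1 gene KEAP1 had 20.9, 0.488, 21.2 and 44 CPM at 12 h and 69.2, 27.4, 49.7 and 22.2 CPM at 24 h, with a log2 fold change of 0.96 ± 0.55 (adjusted p = 0.516).

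Between 12 h and 24 h a small set of genes changed. The mitochondrial genes cox7a1, DECR1 and ECH1, the glutathione transferase genes gstk1 and GSTZ1, the folding genes calr3a and fkbp11 of the endoplasmic reticulum and the globin gene hbae3 fell, and the carrier protein gene serpina7, the clock output gene dbpb and the p53-regulated gene rps27l rose. With all libraries, 50 of 11384 tested genes (0.439%) had an adjusted p under 0.05 in edgeR's quasi-likelihood test. Of these, 9 were higher at 24 h (0.0791%) and 41 were lower (0.36%), while the median log2 fold change over all tested genes was 0.21. Without KO APAP 12 h replicate 2, 34 genes passed (0.299%), 7 higher (0.0615%) and 27 lower (0.237%), and the median over all tested genes was 0.01. The call and its direction held both ways for 27 genes, 6 higher and 21 lower. A further 23 passed only with replicate 2, which was the highest of the 4 libraries at 12 h for 19 of them, and 7 passed only without it. The 4 and 4 libraries did not overlap for 46 of the 50 genes, against 660 of all tested genes (5.8%). The count depended on other libraries too: it was 13 without 24 h replicate 3 and 93 without 12 h replicate 1. For 40 of the 50 genes the change did not pass the test of its difference from the change in KO DMSO livers, which is taken up further on. The genes apoc1, hbae3, RBP2 and serpina7 passed in all 19 other ways of processing that were run, and cox7a1, COMTD1, gstk1 and zgc:172051 failed only in the fit of the 8 KO APAP libraries alone. None of the 50 genes changed direction in these 19.

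**Figure D2:**
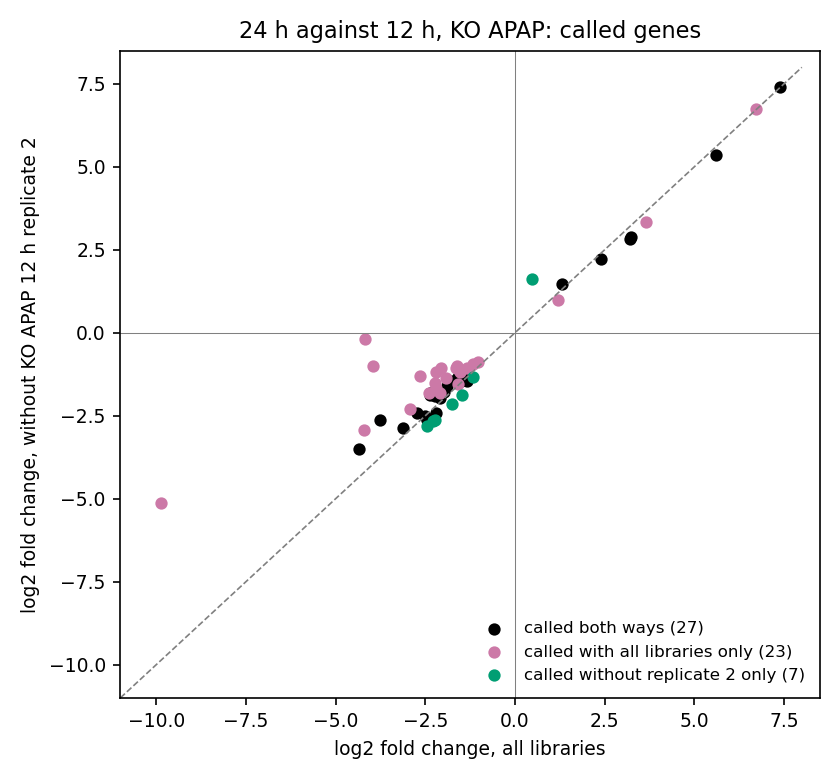
Log2 fold change of KO APAP 24 h against 12 h with all libraries (x axis) and without KO APAP 12 h replicate 2 (y axis), 1 point per gene that passed in either fit; the dashed line marks equal values. The 27 genes that passed both ways (black) lie near the line, and MIEF1, among the 23 that passed only with replicate 2 (pink), lies at -4.19 on the x axis and -0.19 on the y axis. The fold change of a gene without counts at one time depends on the prior count.

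The genes that rose both ways were serpina7, rps27l, dbpb, eevs, NIPAL4 and the unnamed locus zgc:172051. The serpin gene serpina7 (ENSDARG00000087143), which encodes the plasma carrier of thyroid hormone in mammals, had 12.08, 0.732, 37.6 and 13.1 CPM at 12 h and 133, 119, 221 and 118 CPM at 24 h. Its groups did not overlap, and replicate 2 held the lowest value at 12 h. Absence of overlap was a condition for naming the genes with the highest and lowest fold changes, so it adds no support for them. The log2 fold change was 3.22 ± 0.64 (edgeR adjusted p = 0.00773) and 2.84 without replicate 2 (adjusted p = 0.0183). The gene rps27l (ENSDARG00000100513), a p53-regulated relative of a small-subunit ribosomal protein, had 632, 683, 329 and 489.8 CPM at 12 h and 1435, 1575, 1276 and 1017 CPM at 24 h. The groups did not overlap, and the log2 fold change was 1.31 ± 0.30 (adjusted p = 0.0261) and 1.46 without replicate 2 (adjusted p = 0.0216).

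Low genes were among those that rose. The transcription factor gene dbpb (ENSDARG00000057652), an output of the circadian clock, had 2.75, 0.244, 3.93 and 3.67 CPM at 12 h and 29.2, 21.7, 34 and 15.8 CPM at 24 h. The groups did not overlap, and the log2 fold change was 3.23 ± 0.69 (edgeR adjusted p = 0.0143) and 2.87 without replicate 2 (adjusted p = 0.0317). The gene eevs (ENSDARG00000087873), whose enzyme starts the synthesis of the sunscreen compound gadusol in fish, had no count in the 4 libraries at 12 h and 3.09, 3.06, 7.24 and 2.13 CPM at 24 h. Against a floor of 3 counts over the group this is at least 24.5-fold higher, and the gene passed with all libraries (adjusted p = 0.00673) and without replicate 2 (adjusted p = 0.0261). NIPAL4 (ENSDARG00000059365), of a family of magnesium transporters, had 1 count in all at 12 h and 68 at 24 h, with 8.12, 1.75, 2.65 and 1.65 CPM in the libraries at 24 h. The ratio was 72.5 with a 95% counting interval of 12.6 to 2905, which covers counting error only, and replicate 1 was the highest. The gene passed both ways (adjusted p = 0.000545 and 0.00327). The unnamed locus zgc:172051 had 6.77, 7.56, 24 and 13.1 CPM at 12 h and 49.5, 56, 94.8 and 69.7 CPM at 24 h. Its log2 fold change was 2.39 ± 0.46 (adjusted p = 0.00648) and 2.22 without replicate 2 (adjusted p = 0.0172). NIPAL4 and eevs met the minimum level for named genes through other groups, with means of 22.6 and 41.9 CPM for NIPAL4 and 4.64 and 65.6 CPM for eevs in KO DMSO at 12 h and 24 h. Another 3 genes passed with all libraries and missed the threshold without replicate 2, with changes of about the same size. The gene eva1ba had no count in any library at 12 h and was at least 16.3-fold higher at 24 h (adjusted p = 0.0243, and 0.0689 without replicate 2). The locus zgc:174259 had a log2 fold change of 3.64 ± 0.82 (adjusted p = 0.0243) and 3.33 without replicate 2 (adjusted p = 0.0927). The proteasome subunit gene PSMB7 had 173, 78.5, 172 and 188 CPM at 12 h and 334, 335, 357 and 384 CPM at 24 h, and its log2 fold change was 1.205 ± 0.28 (adjusted p = 0.0325) and 1.0003 without replicate 2 (adjusted p = 0.0721).

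**Figure D3:**
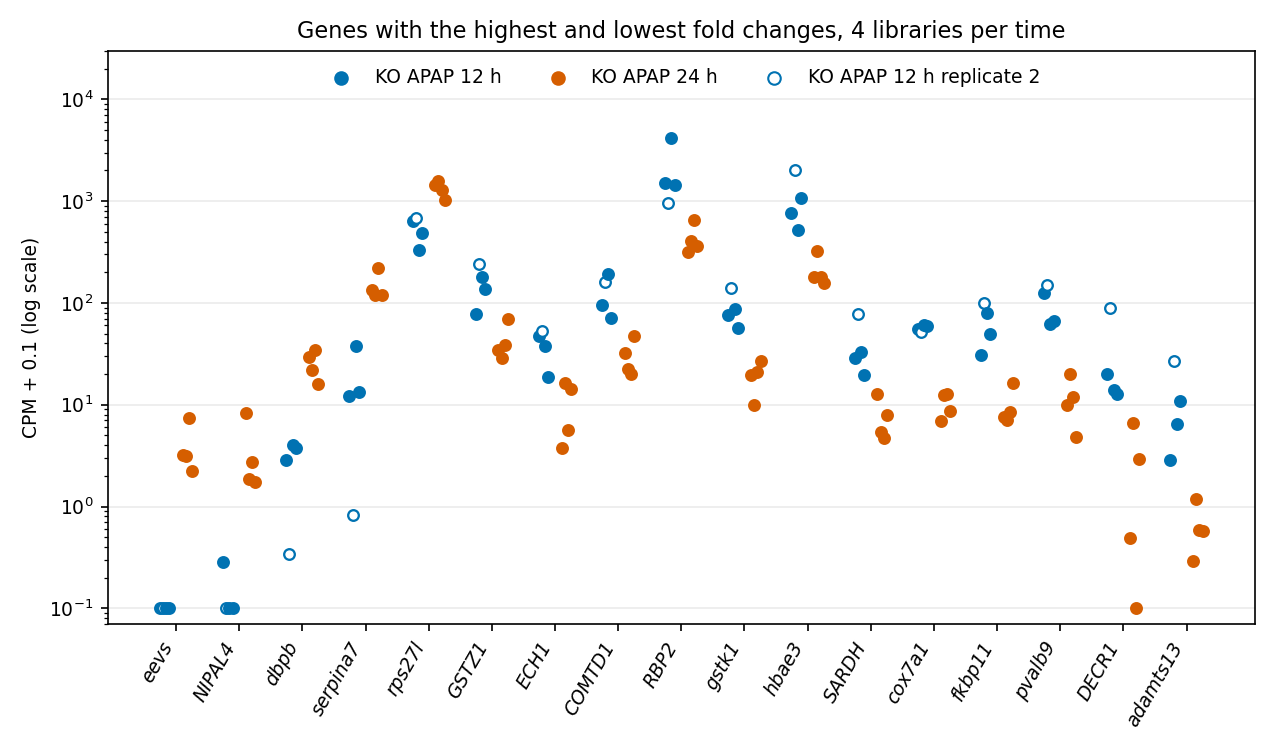
CPM plus 0.1 on a log scale (y axis) of the 17 genes with the highest and lowest fold changes that passed both ways (x axis), 1 point per library; blue is KO APAP 12 h, orange KO APAP 24 h, and the open circle is KO APAP 12 h replicate 2. Absence of overlap between the times was a condition for picking these 17 genes, and the points at the lower edge are libraries without a count.

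Genes of mitochondrial metabolism were among those that fell. The gene cox7a1 (ENSDARG00000069464), a subunit of cytochrome c oxidase in the respiratory chain, had 55.1, 51.7, 60.3 and 58.7 CPM at 12 h and 6.76, 12.3, 12.5 and 8.5 CPM at 24 h. The 4 libraries at 12 h lay close together, replicate 2 among them, and all 4 at 24 h were far below. The log2 fold change was -2.49 ± 0.32 (edgeR adjusted p = 1.74e-05, the smallest of all tested genes) and -2.52 without replicate 2 (adjusted p = 3.23e-06). It was the only gene of 80 tested genes of the respiratory chain and ATP synthase to pass, with a median log2 fold change of -0.25 over the 80. DECR1 (ENSDARG00000003869) and ECH1 (ENSDARG00000012915) encode a reductase and an isomerase that let unsaturated fatty acids pass through beta-oxidation. DECR1 had 19.8, 88.3, 14 and 12.5 CPM at 12 h and 0.387, 6.56, 0 and 2.83 CPM at 24 h, with replicate 2 far above the other 3 at 12 h. Its log2 fold change was -3.77 ± 0.68 (adjusted p = 0.00357) and -2.63 without replicate 2 (adjusted p = 0.0205). ECH1 had 46.9, 53.4, 37.8 and 18.7 CPM at 12 h and 3.67, 16.4, 5.55 and 14.2 CPM at 24 h, and its log2 fold change was -1.98 ± 0.41 (adjusted p = 0.0124) and -1.78 without replicate 2 (adjusted p = 0.0216). These were 2 of 45 tested genes of fatty acid oxidation, none of which rose, and the median of the 45 was -0.02. Among all tested genes 0.36% were called lower and the median was 0.21, the background for this and the other lists. Very long chain fatty acids are built by a separate set of enzymes. The enoyl reductase gene TECR fell with a log2 fold change of -1.58 ± 0.33 (adjusted p = 0.0132) and -1.34 without replicate 2 (adjusted p = 0.0261). The elongase gene ELOVL2 passed only without replicate 2, at -2.63 (adjusted p = 0.0103). ELOVL2 had 20.5, 0, 13.5 and 23.4 CPM at 12 h and 5.8, 1.09, 1.93 and 3.31 CPM at 24 h.

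Of the enzymes of amino acid breakdown, 2 fell with all libraries. GSTZ1 (ENSDARG00000027984), which isomerises maleylacetoacetate in the breakdown of tyrosine, had 77.4, 242, 179.9 and 136 CPM at 12 h and 34.2, 28.7, 38.6 and 69.7 CPM at 24 h. Its groups did not overlap, and the log2 fold change was -1.89 ± 0.37 (edgeR adjusted p = 0.00743) and -1.602 without replicate 2 (adjusted p = 0.0261). SARDH (ENSDARG00000058102), the mitochondrial sarcosine dehydrogenase, had 28.4, 77.6, 32.8 and 19.7 CPM at 12 h and 12.6, 5.25, 4.58 and 7.8 CPM at 24 h. Its log2 fold change was -2.38 ± 0.45 (adjusted p = 0.00534) and -1.81 without replicate 2 (adjusted p = 0.0205). PIPOX, the peroxisomal enzyme that also oxidises sarcosine, had 7.51, 0.244, 5.68 and 12 CPM at 12 h and 0.387, 1.31, 0.241 and 3.31 CPM at 24 h. With replicate 2 near 0 the times overlapped, and the log2 fold change was -2.28 ± 0.69 (adjusted p = 0.121). It was -2.67 without replicate 2 (adjusted p = 0.0205). Of 69 tested genes of amino acid catabolism 2 fell and none rose with all libraries, 3 fell without replicate 2, and the median was 0.00. Among all tested genes 0.36% fell with all libraries and 0.237% without replicate 2.

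Enzymes of conjugation and aldehyde handling were a further group. The gene gstk1 (ENSDARG00000056510), a glutathione transferase of mitochondria and peroxisomes, had 76.7, 139, 87.6 and 56 CPM at 12 h and 19.5, 9.85, 20.7 and 26.9 CPM at 24 h. The groups did not overlap, and the log2 fold change was -2.22 ± 0.35 (edgeR adjusted p = 0.000545) and -1.92 without replicate 2 (adjusted p = 0.00153). With GSTZ1, gstk1 made up the 2 of 51 tested genes of conjugation and drug transport that fell, beside 0.36% of all tested genes, and none rose. ESD, whose product hydrolyses S-formylglutathione in the removal of formaldehyde, had 69.6, 71.2, 62 and 56.3 CPM at 12 h and 20.5, 19.3, 21.9 and 30.2 CPM at 24 h. The groups did not overlap. The log2 fold change was -1.49 ± 0.32 (adjusted p = 0.0138) and -1.44 without replicate 2 (adjusted p = 0.0105). ESD was the only gene of 40 tested genes on the list of Nrf2 targets to pass, and the median of the 40 was -0.18. COMTD1 (ENSDARG00000078918), which encodes a methyltransferase-domain protein, had 94.8, 159.5, 192 and 71.8 CPM at 12 h and 32.5, 22.3, 20.0 and 47 CPM at 24 h, with a log2 fold change of -2.09 ± 0.34 (adjusted p = 0.000598) and -1.95 without replicate 2 (adjusted p = 0.00284). The alcohol dehydrogenase gene adh8b fell with all libraries (-1.92 ± 0.42, adjusted p = 0.0175) and did not pass without replicate 2 (-1.35, adjusted p = 0.115).

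Quinone reduction and glutathione recycling, known Nrf2 targets, gave no call. The quinone reductase gene NQO1 had 336, 383, 217 and 203 CPM at 12 h and 175, 143, 321 and 360.0 CPM at 24 h, the times overlapped, and its log2 fold change was -0.19 ± 0.39 (edgeR adjusted p = 0.907). The glutathione reductase gene GSR had 141, 113, 58.1 and 80.7 CPM at 12 h and 55.9, 56.9, 58.8 and 92.8 CPM at 24 h, at -0.57 ± 0.36 (adjusted p = 0.577). The peroxiredoxin gene prdx1 (ENSDARG00000058734) had 588, 402, 157 and 231 CPM at 12 h and 188, 161, 116 and 221 CPM at 24 h. It gave -1.005 ± 0.35 (adjusted p = 0.198), while a second gene under the symbol PRDX1 (ENSDARG00000025350) gave 0.30 ± 0.28 (adjusted p = 0.745). In KO DMSO prdx1 fell over the same hours by 1.85 on the log2 scale (adjusted p = 0.00346); the difference between both courses, 0.85 ± 0.50, did not pass (adjusted p = 0.664).

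Genes of secretion and of secreted liver proteins fell, in small numbers. The apolipoprotein gene apoc1, whose product rides on lipoproteins, had 4714, 6662, 7637 and 4573 CPM at 12 h and 1669.5, 2069.5, 2702 and 1812 CPM at 24 h. Every library at 24 h was below every library at 12 h, and the log2 fold change was -1.51 ± 0.28 (edgeR adjusted p = 0.00511) and -1.44 without replicate 2 (adjusted p = 0.0261). The antiplasmin gene serpinf2a had 124, 145, 154 and 101 CPM at 12 h and 43.9, 22.5, 51.4 and 56.2 CPM at 24 h and -1.59 ± 0.39 (adjusted p = 0.0456). The antimicrobial peptide gene leap2 had 6.04, 32.4, 7.42 and 1.16 CPM at 12 h and 0.193, 1.75, 0.482 and 0 CPM at 24 h and gave -4.22 ± 0.98 (adjusted p = 0.0313). Neither serpinf2a (-1.53, adjusted p = 0.0917) nor leap2 (-2.94, adjusted p = 0.196) passed without replicate 2. Over the 61 tested plasma protein genes of hepatocytes 1 rose, serpina7, and 3 fell, with a median of 0.13. Among all tested genes 0.0791% rose and 0.36% fell. Of 28 tested complement genes, c8b, a chain of the membrane attack complex, fell with all libraries. It had 29.8, 128, 46.3 and 35.1 CPM at 12 h and 11.4, 10.3, 15.4 and 14.2 CPM at 24 h, with replicate 2 far above the rest, and its log2 fold change was -2.22 ± 0.47 (adjusted p = 0.0147) and -1.52 without replicate 2 (adjusted p = 0.147). The complement gene c4b passed only without replicate 2, at -2.82 (adjusted p = 0.00327), and had 11.7, 0.488, 18.6 and 17.9 CPM at 12 h and 3.48, 1.31, 3.14 and 0.945 CPM at 24 h. The median of the 28 was -0.43 with all libraries and -0.74 without replicate 2.

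The endoplasmic reticulum, where these proteins are made, was represented by 5 genes that fell. The prolyl isomerase gene fkbp11 (ENSDARG00000037000) had 30.8, 99, 79.3 and 49.6 CPM at 12 h and 7.54, 7.002, 8.44 and 16.1 CPM at 24 h, and its log2 fold change was -2.73 ± 0.59 (edgeR adjusted p = 0.0154) and -2.43 without replicate 2 (adjusted p = 0.0393). The calreticulin gene calr3a, a lectin chaperone, had 177, 137, 253 and 185 CPM at 12 h and 91.4, 71.3, 71.1 and 61.9 CPM at 24 h. It gave -1.34 ± 0.27 (adjusted p = 0.0107) and -1.46 without replicate 2 (adjusted p = 0.00327). A second prolyl isomerase gene, FKBP2, had 185, 183, 125 and 65.6 CPM at 12 h and 48.9, 47.9, 43.9 and 41.3 CPM at 24 h. It gave -1.62 ± 0.34 (adjusted p = 0.0127) and -1.45 without replicate 2 (adjusted p = 0.0201). SSR3, a subunit of the translocon-associated protein complex, and SERP1, a small protein bound to the translocon, fell with all libraries at -1.17 ± 0.27 and -1.34 ± 0.33 (adjusted p = 0.0251 and 0.0495) and were at -0.93 and -1.07 without replicate 2 (adjusted p = 0.1003 and 0.123). A list of 74 tested genes of import and folding, drawn up after these values were seen, held these 5 and no gene that rose, 3 without replicate 2, with a median of -0.39. In WT DMSO 5 of the 74 were called lower and 1 higher (median -0.46), and in KO DMSO 3 were called lower (median -0.26). No difference between KO APAP and KO DMSO passed for any of the 74. Among all tested genes 0.36% fell in KO APAP, 0.773% in KO DMSO and 0.835% in WT DMSO. On the list of endoplasmic reticulum stress genes, 1 of 42 passed in KO APAP, which was calr3a, with a median of -0.20.

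Several genes that fell were listed as markers of cells other than hepatocytes. Which cells of these livers held their RNA was not tested. The embryonic alpha-globin gene hbae3 (ENSDARG00000079305) had 760.0, 2035, 524 and 1063 CPM at 12 h and 181, 324, 182 and 159 CPM at 24 h. The groups did not overlap, although replicate 2 was the highest at 12 h, and the log2 fold change was -2.37 ± 0.38 (edgeR adjusted p = 0.000598) and -1.87 without replicate 2 (adjusted p = 0.0107). The beta-globin gene listed as HBE1 (ENSDARG00000113599) had 447, 1067, 221 and 451 CPM at 12 h and 91.6, 211, 216 and 188 CPM at 24 h. It gave -1.63 ± 0.39 (adjusted p = 0.0411) and -1.07 without replicate 2 (adjusted p = 0.321). Globin genes are close copies, so reads may be split between them. Of 19 tested red blood cell markers 2 fell, beside 0.36% of all tested genes, none rose and 13 had a fold change below 0, with a median of -0.65. Their summed share of the counts was 0.1249% to 0.466% at 12 h and 0.0634% to 0.134% at 24 h (exact permutation p = 0.0571, two-sided, n = 4 and 4). Without replicate 2 the share at 12 h was 0.1249% to 0.264%. With the 2 called globin genes left out, the shares were 0.0631% to 0.183% at 12 h and 0.034% to 0.0845% at 24 h and overlapped. Of the markers that are no globins, alas2 lay between 0 and 3.62 CPM in the 8 libraries and both genes listed as SLC4A1 between 0 and 4.38 CPM. In pooled livers, fewer cells of a type and less RNA per cell cannot be told apart.

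RBP2 (ENSDARG00000093774), a retinol-binding protein of the intestinal epithelium in mammals, had 1515, 967, 4129 and 1428 CPM at 12 h and 315, 403, 658 and 362 CPM at 24 h. Replicate 3 stood above the other libraries at 12 h, the times did not overlap, and the log2 fold change was -2.21 ± 0.41 (edgeR adjusted p = 0.00472) and -2.42 without replicate 2 (adjusted p = 0.00327). Of 29 tested intestine markers 1 fell, this gene, and the median was -0.18. The fold change was above 0 for 13 of the 29 and below 0 for 16. A second gene under the symbol RBP2 (ENSDARG00000070038) had a log2 fold change of 0.31 (adjusted p = 0.824), and the intestinal fatty acid-binding protein gene FABP2 had -0.47 (adjusted p = 0.768). The summed share of these markers was 0.371% to 0.673% at 12 h and 0.224% to 0.332% at 24 h, without overlap (exact permutation p = 0.0286, the smallest the design allows, and 0.257 after adjustment over 18 measures of the libraries). That sum includes RBP2 itself. With RBP2 left out it was 0.282% to 0.375% at 12 h and 0.193% to 0.295% at 24 h, and the groups overlapped, through replicate 2 at 12 h. POSTN, which encodes the matrix protein periostin, had 47.2, 106, 47.8 and 23.4 CPM at 12 h and 10.05, 14.2, 13 and 11.8 CPM at 24 h, with a log2 fold change of -2.19 ± 0.46 (adjusted p = 0.0127) and -1.67 without replicate 2 (adjusted p = 0.0689). It was 1 of 29 tested stellate and mesenchymal markers, whose summed share was 0.108% to 0.136% at 12 h and 0.0601% to 0.0861% at 24 h (exact permutation p = 0.0286, adjusted p = 0.257). Without POSTN it was 0.098% to 0.133% and 0.0592% to 0.0852%, again without overlap. The protease gene adamts13 (ENSDARG00000076270), which is made by stellate cells in the mammalian liver and cleaves von Willebrand factor, had 2.75, 27.1, 6.33 and 10.8 CPM at 12 h and 0.193, 1.09, 0.482 and 0.472 CPM at 24 h. It gave -4.34 ± 0.74 (adjusted p = 0.00125) and -3.51 without replicate 2 (adjusted p = 0.00502). Of the defining markers, cdx1b of intestine lay between 0 and 7.33 CPM and DCN of stellate cells between 0 and 5.6 CPM. The part of these cell shares in the gene results was not tested.

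The parvalbumin gene pvalb9 (ENSDARG00000071601), a calcium-binding protein, had 126, 149, 62.2 and 66.2 CPM at 12 h and 9.86, 19.9, 11.8 and 4.72 CPM at 24 h. The log2 fold change was -3.12 ± 0.62 (edgeR adjusted p = 0.00805) and -2.86 without replicate 2 (adjusted p = 0.0216). The gene also fell in KO DMSO, at -2.37 ± 0.60 (adjusted p = 0.0198). No skeletal muscle marker among 47 tested passed, and their summed share was 0.844% to 1.22% at 12 h and 0.766% to 1.05% at 24 h. IGFBP2, a carrier of insulin-like growth factors, had 58.4, 164, 87.1 and 95.3 CPM at 12 h and 28.2, 21, 23.4 and 44.4 CPM at 24 h, at -1.79 ± 0.35 (adjusted p = 0.00648) and -1.44 without replicate 2 (adjusted p = 0.0261). The remaining genes that fell both ways were NDRG2 (-1.41 ± 0.30, and -1.37 without replicate 2), the dynein light chain gene dynll1 (-1.31 ± 0.30, and -1.31) and zgc:92040 (-2.45 ± 0.58, and -2.63), all log2 fold changes ± SE.

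Replicate 2 at 12 h decided other calls. The gene MIEF1 had 2.01, 136, 1.53 and 3.09 CPM at 12 h and 0.773, 1.97, 3.14 and 1.89 CPM at 24 h. Its log2 fold change went from -4.19 ± 0.93 (edgeR adjusted p = 0.0214) to -0.19 without replicate 2 (adjusted p = 0.984). The lysosomal channel gene MCOLN1 had 26.7, 118, 10.7 and 11.6 CPM at 12 h and 7.73, 7.66, 4.82 and 6.14 CPM at 24 h, and went from -2.65 ± 0.62 (adjusted p = 0.0327) to -1.30 without replicate 2 (adjusted p = 0.399). The log2 fold change also moved by more than 1.5 times for the growth factor gene MDK (-1.19 without replicate 2), fxyd3 (-1.002), ZFHX4 (-1.07) and zgc:112146 (-1.01). ENSDARG00000103130 had 84.4 CPM in replicate 2 and at most 2.4 CPM in the other 3 libraries at 12 h. Other calls were lost with folds of nearer size. LIAS, the lipoic acid synthase, went from -2.39 ± 0.53 to -1.81 without replicate 2 (adjusted p = 0.0878) and BZW1 from -2.09 ± 0.46 to -1.83 without replicate 2 (adjusted p = 0.0673). The actin-binding protein gene COTL1 went from -1.54 ± 0.37 to -1.19 without replicate 2 (adjusted p = 0.115). The prothymosin gene ptmaa went from -1.03 ± 0.25 to -0.89 without replicate 2 (adjusted p = 0.093) and tmem110l from -2.93 ± 0.70 to -2.29 without replicate 2 (adjusted p = 0.162), so that each gene that passed with all libraries has been named. Genes outside the rule for named genes, such as TECR, IGFBP2, NDRG2 and those just listed, were picked after their values were seen. For 8 of the 50 genes replicate 2 held over 3 times the highest of the other 3 libraries. CYP7A1, the first enzyme of bile acid synthesis from cholesterol, had 2.75, 99.3, 0 and 2.51 CPM at 12 h and 3.29, 1.75, 1.93 and 0 CPM at 24 h. It did not pass with all libraries (-3.86 ± 1.08, adjusted p = 0.0906) and was at -0.00353 without replicate 2. Without that library msrb2, which repairs oxidised methionine, si:ch73-281k2.5, ENSDARG00000094974 and LXN passed as well, and LXN was the one among them that was higher at 24 h, at 1.62 (adjusted p = 0.0261).

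Stress and growth genes gave few or no calls. None passed among 45 tested heat shock and chaperone genes, 44 stress-induced transcription factor genes, 28 genes of the amino acid response and tRNA charging, 86 genes of ribosome biogenesis, 79 cytosolic ribosomal protein genes, 61 genes of DNA replication and 66 genes of mitosis. Their median log2 fold changes were 0.21, -0.17, 0.15, 0.23, 0.10, -0.42 and -0.06 in that order, beside 0.21 over all tested genes. The inducible chaperone gene hsp70.3 had 24.7, 65.1, 22.7 and 24.9 CPM at 12 h and 9.28, 17.1, 5.06 and 0.709 CPM at 24 h, and the times did not overlap. Its log2 fold change was -2.09 ± 0.95 and missed the threshold (edgeR adjusted p = 0.374), as did -1.56 without replicate 2 (adjusted p = 0.727). Its relative hsp70l gave -1.55 ± 1.06 (adjusted p = 0.617) and HSP90AA1 0.39 ± 0.59 (adjusted p = 0.864). The immediate early gene FOSL1 had 28.9, 63.2, 38 and 30.3 CPM at 12 h and 23.4, 21.2, 24.4 and 15.4 CPM at 24 h and -0.93 ± 0.68 (adjusted p = 0.645). The immediate early gene JUNB had 2 entries, at -0.56 ± 1.36 (ENSDARG00000104773, adjusted p = 0.924) and -1.02 ± 0.69 (ENSDARG00000074378, adjusted p = 0.600). The stress factor gene ATF3 gave -0.17 ± 0.77 (adjusted p = 0.965). The cell cycle kinase gene CDK1 gave -1.08 ± 0.55 (adjusted p = 0.439), and PCNA, the sliding clamp of replication, -0.20 ± 0.34 (adjusted p = 0.879). Of 32 tested p53 pathway genes rps27l rose and none fell, and of 47 proteasome genes PSMB7 rose and none fell.

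The metabolic lists without a call were cytochrome P450 (42 tested, median -0.17), cholesterol synthesis (23, -0.14), fatty acid and triglyceride synthesis (32, -0.13), glucose and glycogen metabolism (55, 0.12) and bile acids (23, 0.21). The gluconeogenic enzyme gene PCK1 had 2288, 2273, 2442 and 2489 CPM at 12 h and 2431, 2095, 2779 and 3081 CPM at 24 h, with a log2 fold change of 0.13 ± 0.39 (edgeR adjusted p = 0.942). The arginase gene ARG2 gave 0.26 ± 0.45 (adjusted p = 0.883), the glycolytic regulator gene PFKFB3 -1.16 ± 0.82 (adjusted p = 0.629) and the beta-oxidation isomerase gene ECI1 0.09 ± 0.33 (adjusted p = 0.957). The neuropeptide gene CARTPT (ENSDARG00000035852) had 219, 129, 163 and 98.8 CPM at 12 h and 40.004, 81.8, 41.2 and 42.5 CPM at 24 h. The times did not overlap, but the log2 fold change of -1.57 ± 0.57 missed the threshold (adjusted p = 0.212). A second gene under the symbol CARTPT (ENSDARG00000070930) was not called either. Its log2 fold change turned from below 0 to 0.15 without KO APAP 12 h replicate 3. The egg yolk precursor gene vtg7 ranged from 123 to 2506 CPM over the 8 libraries and gave 1.604 ± 0.69 (adjusted p = 0.331). Acute phase and inflammation (38 tested), cytoskeleton and wound repair (78), and markers of neutrophils (6), macrophages (13), endothelium (18), bile ducts (13), exocrine pancreas (27), endocrine pancreas (12) and epidermis (26) also held no called gene. Among 73 autophagy and lysosome genes, MCOLN1 alone passed. Without replicate 2 none passed among the proteasome, autophagy and stellate lists, 1 fell among fatty acid and triglyceride synthesis (ELOVL2), and the other lists with no call still had none.

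The same hours in KO livers with DMSO were used to ask which changes went with APAP. In KO DMSO 287 genes passed between 12 h and 24 h (2.52%), 199 higher (1.75%) and 88 lower (0.773%), and 627 (5.51%) in the fit without KO APAP 12 h replicate 2, which changes the shared estimate of the spread. The change in KO APAP differed from that in KO DMSO for 22 genes (0.193%), 5 with a higher (0.0439%) and 17 with a lower difference (0.149%), and without KO APAP 12 h replicate 2 for 34 (0.299%), of which 18 were among the 22. The count of 22 depended on single libraries. It was 61 without KO APAP 12 h replicate 1, and 6, 12 and 10 without KO APAP 24 h replicates 1, 2 and 3. It was 9 without KO DMSO 12 h replicate 1, replicate 2 or KO DMSO 24 h replicate 3, and 5 without KO DMSO 24 h replicate 4. DESeq2 gave 110. Of the 22, the 4 that passed only with KO APAP 12 h replicate 2 were hbae3, NIPAL4, aqp12 and cpo. A difference is the log2 fold change in KO APAP minus that in KO DMSO. Of the 22 genes, 10 were also called in KO APAP itself. For 20 of the 22 the fold change in KO DMSO had the opposite sign to that in KO APAP.

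The genes with a lower difference included the respiratory chain gene cox7a1 and the enzyme genes COMTD1, GSTZ1, HGD and GAMT. Hepatocyte markers rose in KO DMSO, where 6 of 11 were called higher (median 1.39), beside 1.75% of all tested genes. Their summed share there was 3.29% to 6.15% at 12 h and 7.53% to 8.44% at 24 h. In KO APAP the share was 4.61% to 7.43% at 12 h and 5.90% to 8.17% at 24 h. The part of these shares in the differences was not tested. By list, 2 of 69 tested genes of amino acid catabolism and 1 of 80 of the respiratory chain had a lower difference, beside 0.149% of all tested genes. In KO DMSO, cox7a1 had 171, 104, 194 and 149.5 CPM at 12 h and 181, 197, 271 and 229.5 CPM at 24 h, all above the 8 KO APAP libraries given before. The difference was -3.0002 ± 0.44 (edgeR adjusted p = 0.000144). COMTD1 had 243, 133, 217 and 242 CPM at 12 h and 534, 412, 414 and 534 CPM at 24 h in KO DMSO, where it rose by 1.18 ± 0.33 (adjusted p = 0.0391). Its difference was -3.27 ± 0.47 (adjusted p = 0.000144). GSTZ1 had 129.9, 83.2, 269.9 and 194 CPM and then 308, 265, 256 and 336 CPM in KO DMSO, and its difference was -2.68 ± 0.52 (adjusted p = 0.0129). HGD, which acts upstream of GSTZ1 in tyrosine breakdown, had 124, 328, 194 and 139 CPM at 12 h and 46.8, 51.4, 107 and 105 CPM at 24 h in KO APAP. In KO DMSO it had 137, 64.3, 204 and 165 CPM and then 269, 274, 384 and 426 CPM, and the difference was -2.58 ± 0.54 (adjusted p = 0.0227). GAMT, the last enzyme of creatine synthesis, had 1014 to 1386 CPM at 12 h and 4739.5 to 8009.8 CPM at 24 h in KO DMSO, where it rose (2.41 ± 0.33, adjusted p = 9.74e-05). It gave 0.23 ± 0.32 in KO APAP, a difference of -2.18 ± 0.45 (adjusted p = 0.0224). The complement genes c8b and c8g differed by -3.47 ± 0.65 and -2.17 ± 0.43 (adjusted p = 0.011 and 0.0165), RBP2 by -3.06 ± 0.57 (0.011) and hbae3 by -2.40 ± 0.52 (0.0297). ESD (-1.93 ± 0.44), IGFBP2 (-2.34 ± 0.48), adamts13 (-4.43 ± 0.95), si:ch211-288g17.4 (-2.45 ± 0.53) and aqp12 (-2.06 ± 0.46), an aquaporin gene of the exocrine pancreas in mammals, had lower differences too. Not called in KO APAP itself were HGD (-1.34, edgeR adjusted p = 0.103), c8g (-0.91, 0.178), aqp12 (-0.88, 0.229) and si:ch211-288g17.4 (-1.47, 0.0671). Both c8g (1.26, adjusted p = 0.015) and aqp12 (1.18, adjusted p = 0.0398) rose in KO DMSO.

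GADD45B, which responds to DNA damage and other stress, had 3.88, 7.39, 2.85 and 3.88 CPM at 12 h and 22.8, 25.6, 33.2 and 24.9 CPM at 24 h in KO DMSO. In KO APAP it was at 79.8, 142, 149 and 61.2 CPM at 12 h and at 58.9, 52.3, 68.3 and 63.1 CPM at 24 h. It rose in KO DMSO (2.55 ± 0.47, edgeR adjusted p = 0.00174), gave -0.83 ± 0.44 in KO APAP (adjusted p = 0.462), and the difference was -3.38 ± 0.64 (adjusted p = 0.011). Its paralog GADD45G differed by -3.01 ± 0.64 (adjusted p = 0.0267), and ZFP36L1, which binds unstable messenger RNAs, by -2.48 ± 0.54 (adjusted p = 0.0297). Both rose in KO DMSO, at 2.59 and 2.19 (adjusted p = 0.00165 and 0.00125). Neither was called in KO APAP, at -0.42 and -0.29 (adjusted p = 0.792 and 0.838).

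The higher differences were those of UBE2C, KPNA2, cdca3, NIPAL4 and cpo. With all libraries, 1 of 66 tested mitosis genes had a called difference, UBE2C, and of 61 DNA replication genes none. Without KO APAP 12 h replicate 2, which had no count for UBE2C, 10 of the 34 called differences were higher and 24 lower. UBE2C then stood at 3.74 (edgeR adjusted p = 0.000424). The higher differences that passed only in that fit included TPX2 (3.74, 0.0297), plk1 (3.48, 0.0304) and PBK (3.27, 0.0396). In KO DMSO 18 of 66 tested mitosis genes fell between 12 h and 24 h and none rose, with a median log2 fold change of -2.81, against 0 called and a median of -0.06 in KO APAP. Over all tested genes 0.773% fell in KO DMSO. In WT livers 22 of 66 were called lower in WT DMSO (median -3.23), where 0.835% of all tested genes were, and 0 were called in WT APAP (median 0.12). The difference between these 2 WT courses was not tested. UBE2C, the ubiquitin-conjugating enzyme of the anaphase-promoting complex, had 34.9, 38.3, 49.1 and 51.1 CPM at 12 h and 3.69, 2.995, 3.26 and 2.74 CPM at 24 h in KO DMSO. In KO APAP it had 12.08, 0, 8.95 and 5.4 CPM and then 7.34, 10.1, 5.31 and 11.3 CPM, levels below every KO DMSO library at 12 h. The difference was 4.12 ± 0.82 (edgeR adjusted p = 0.0165). The nuclear import gene KPNA2 had 104 to 257 CPM at 12 h and 4.35 to 33.8 CPM at 24 h in KO DMSO, where it fell, and gave 0.72 ± 0.53 in KO APAP, a difference of 3.75 ± 0.77 (adjusted p = 0.0195). The mitotic entry gene cdca3 differed by 5.53 ± 1.26 (adjusted p = 0.0436), with few counts in KO APAP. It had 0, 0, 2.62 and 1.54 CPM at 12 h and 1.42 to 2.63 CPM at 24 h in KO APAP. In KO DMSO it had 11.5 to 32.6 CPM at 12 h and 0 to 1.90 CPM at 24 h. The other 2 genes with a higher difference were NIPAL4 (4.71 ± 1.06, adjusted p = 0.0400) and cpo (7.08 ± 1.62, adjusted p = 0.0436), both nearly without counts at 12 h in KO APAP, so that the size depends on the prior count. In KO DMSO cpo had 4.91, 32.6, 1.96 and 4.16 CPM at 12 h, with replicate 2 far above the rest, and 1.37 to 3.26 CPM at 24 h. Of 79 cytosolic ribosomal protein genes 34 rose in KO DMSO and none in KO APAP, with medians of 0.83 and 0.10, and no difference passed for any of them. Over all tested genes 1.75% rose in KO DMSO, and in WT DMSO 4 of the 79 rose.

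**Figure D4:**
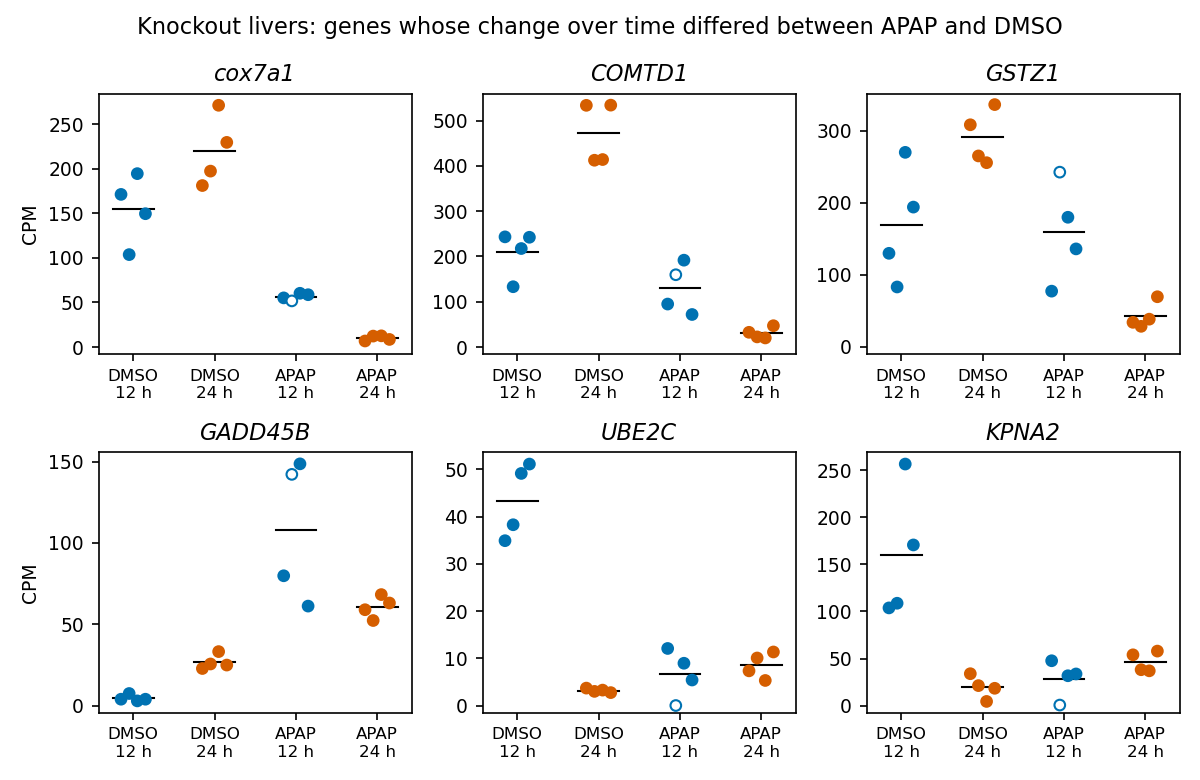
CPM (y axes) of 6 genes whose change over time differed between APAP and DMSO in KO livers, 1 point per library, with bars at group means (x axes: treatment and time; blue 12 h, orange 24 h; open circle, KO APAP 12 h replicate 2). The metabolic genes cox7a1, COMTD1 and GSTZ1 are low in APAP livers at 24 h, GADD45B is above its DMSO levels at both times, and UBE2C and KPNA2 are highest in DMSO livers at 12 h.

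WT livers with APAP were compared over the same hours to see how the KO course differs. No gene (0%) passed in the test of the difference between KO APAP and WT APAP with edgeR, with all libraries or without replicate 2. Of 11384 tested genes, 593 and 466 had an unadjusted p under 0.05, near or below the number that this threshold gives by chance. With all libraries DESeq2 called 6 genes and limma voom 0, with 718 and 515 at an unadjusted p under 0.05. In WT APAP itself 6 genes passed (0.0527%), 1 higher (0.00878%) and 5 lower (0.0439%). All 6 had also passed in KO APAP in the same direction: dbpb, which rose, and cox7a1, hbae3, pvalb9, calr3a and ESD, which fell. They were 100% of the WT APAP calls and 12% of the KO APAP calls. Without KO APAP 12 h replicate 2 the fit called 26 genes in WT APAP (0.228%), and 12 were shared, 46.2% of those 26 and 35.3% of the 34.

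The fold changes of the 41 genes that fell in KO APAP were below 0 for 38 in WT APAP, where 49.2% of all tested genes were below 0. They were below 0 for 22 in KO DMSO and 23 in WT DMSO, where 53.3% of all tested genes were below 0 in each, close to the share among the 41. Of the 9 genes that rose, the fold change was above 0 for 9 in KO DMSO, 8 in WT APAP and 8 in WT DMSO. In KO DMSO eevs (3.80 ± 0.81, adjusted p = 0.00573) and zgc:172051 (1.94 ± 0.45, adjusted p = 0.0104) rose as well. Of the 41 genes 4 passed as lower in KO DMSO, where 0.773% of all tested genes did. They were pvalb9 (-2.37 ± 0.60, edgeR adjusted p = 0.0198), FKBP2 (-1.20 ± 0.33, 0.039), COTL1 (-1.69 ± 0.37, 0.00589) and ZFHX4 (-1.76 ± 0.50, 0.0482). In WT DMSO, where 0.835% of all tested genes passed as lower, calr3a, dynll1, ptmaa and COTL1 did so. In WT APAP cox7a1 had 40.2 to 73.4 CPM at 12 h and 13.4 to 18.9 CPM at 24 h (-1.78 ± 0.31, edgeR adjusted p = 0.00889), and the difference of KO from WT was -0.71 ± 0.43. For hbae3 the WT APAP fold change was -2.09 ± 0.38 and the difference -0.28 ± 0.52. For RBP2, at 3677 to 9409 CPM and then 1941 to 3814 CPM, these were -1.34 ± 0.40 and -0.87 ± 0.56. Among the genes that fell, adamts13 gave a difference of -4.06 ± 0.94 (adjusted p = 0.351) and MIEF1 of -5.86 ± 1.26 (adjusted p = 0.195), whose level at 12 h was high in KO replicate 2 alone. Among those that rose, NIPAL4 gave 5.45 ± 1.07 (adjusted p = 0.0933) and eva1ba 7.61 ± 1.78 (adjusted p = 0.351). Both had at most 1 count at 12 h in KO APAP, so that the size depends on the prior count. Their WT APAP fold changes were 0.14 ± 0.55 and -0.89 ± 0.90.

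**Figure D5:**
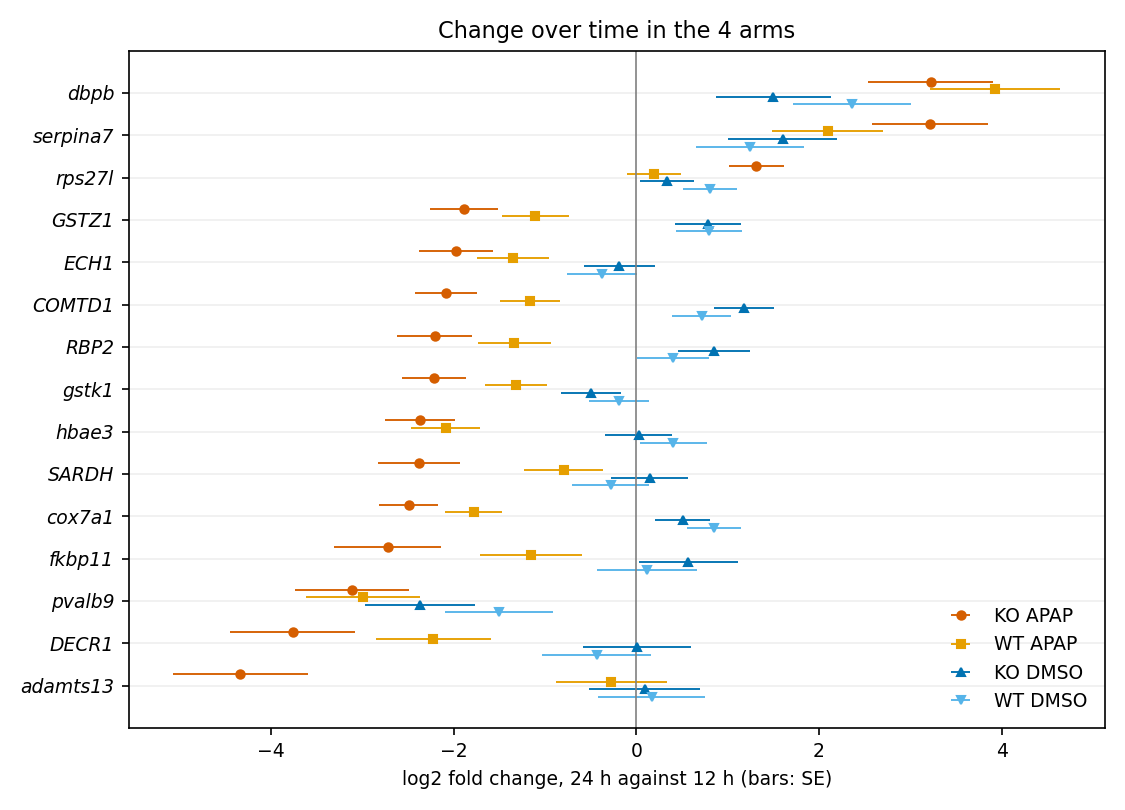
Log2 fold change of 24 h against 12 h (x axis; bars, SE) for 15 genes that passed in KO APAP both ways (y axis), in KO APAP, WT APAP, KO DMSO and WT DMSO, 4 libraries per time in each. In WT APAP the 12 genes that fell in KO APAP all lie below 0. In both DMSO arms COMTD1, GSTZ1, RBP2, cox7a1, hbae3, adamts13 and fkbp11 lie above 0.

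The clock gene dbpb was set among its pathway. In zebrafish the circadian clock runs in most tissues, with activators of the Bmal and Clock families, repressors of the Per and Cry families, and output factors such as Dbp, Tef and Nfil3. On a list of 33 tested clock genes, drawn up after the values were seen, dbpb alone passed in KO APAP (median 0.47). CRY2 had a log2 fold change of 4.37 ± 1.17 (edgeR adjusted p = 0.0787), tefa 2.14 ± 0.61 (0.102) and the repressor gene NR1D1 3.63 ± 1.098 (0.122), and none of them passed. The factor gene nfil3-5 was at -2.86 ± 0.9979 (0.194). The gene dbpb itself gave 1.5001 ± 0.63 in KO DMSO (adjusted p = 0.265) and rose in WT DMSO, at 2.36 ± 0.64 (adjusted p = 0.0382). Its difference between KO APAP and KO DMSO was 1.73 ± 0.89 (adjusted p = 0.583). In KO DMSO, where 1.75% of all tested genes passed as higher and 0.773% as lower, 6 of the 33 clock genes rose and 3 fell. In WT DMSO, where 2.05% of all tested genes passed, 1.21% higher and 0.835% lower, 8 rose and 3 fell. PER3, a period gene, gave 2.30 ± 0.76 in KO APAP (adjusted p = 0.169) and passed in KO DMSO at 5.02 (adjusted p = 0.000607). The labels used here give no hour of day for collection.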

How the data were processed

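Livers were dissected from zebrafish larvae, and RNA of 20 pooled livers per library was sequenced, per the labels' protocols. The deposited file holds the authors' raw counts per Ensembl gene for 32 libraries, without normalization. The submitters' processing notes name bcl2fastq, Trim Galore, HISAT2, HTSeq and the genome build GRCz11, and the order of steps, versions, annotation release and strand setting are not given in the sources used here. Without a stated strand setting, reads of overlapping and antisense genes cannot be told apart. The lines without a gene (21.3% to 33.7% of reads) stayed out of library sizes and tests. Symbols were given for 29200 of 32519 gene IDs by a table of IDs and symbols, and an upper-case symbol is that table's spelling of a zebrafish gene. Genome positions and sequences were not used here.

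Counts were fitted with edgeR 4.0.16 in R 4.3.3: filterByExpr, TMM scaling, 1 mean for each of 8 groups over all 32 libraries, and the quasi-likelihood F-test, two-sided, with Benjamini-Hochberg adjustment over 11384 genes. A gene was called at an adjusted p under 0.05. The biological coefficient of variation was 0.743, and 0.649 without KO APAP 12 h replicate 2. The SE is the log2 fold change divided by the square root of F, and fold changes use a prior count of 0.125. CPM are counts scaled to the TMM library size. Groups without counts were set to a floor of 3 counts over the group. Intervals and floors cover counting error only, since reads are not independent molecules. Shares of counts in marker lists were compared by an exact permutation test over 70 assignments. The scripts were run on simulated counts with less spread between libraries than these data and without a library of few genes. That run does not show how the fits do at the spread seen here.

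Genes were named where they passed with and without KO APAP 12 h replicate 2, had a mean log2 CPM of at least 3 and a symbol, and did not overlap between times (the 12 highest and 12 lowest), where they were among the 4 called members of a list with the smallest p, among the 4 highest or lowest called differences, or fixed by name. The genes, 37 lists and tests were chosen with earlier results of these data known, and the lists of clock genes and of endoplasmic reticulum import and folding after values were seen here. The alternatives were DESeq2 1.42.0, limma 3.58.1 voom with quality weights, another scaling (RLE), other filters, the 8 libraries alone, a replicate block, a robust fit and leaving out libraries. Correlations did not show a pairing by replicate number between the KO APAP libraries at 12 h and 24 h. Pairing across the other groups was not examined. No 2 libraries of a group differed by as little as sampling noise.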

Additional observations from a re-analysis of the deposited data

Results flagged for a closer look

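One library far from the other 3 of its group was found in 31 of 186 groups of 4 values. The limit used flags about 1 in 20 groups when values are normally distributed. CPM need not be, and many groups belong to genes called in these same data, so the 31 cannot be set against that rate. Of the 31, 15 were KO APAP 12 h replicate 2. That library detected 4129 genes. It was the high value at 12 h for DECR1 (88.3 CPM), c8b (128 CPM), ENSDARG00000103130 (84.4 CPM), MIEF1 (136 CPM), MDK (84.4 CPM), MCOLN1 (118 CPM), fxyd3 (107 CPM), zgc:112146 (65.1 CPM), ZFHX4 (60.5 CPM), CYP7A1 (99.3 CPM), hsp70.3 (65.1 CPM) and hsp70l (39 CPM). It was the low value for PSMB7 (78.5 CPM) and NFE2L2 (6.1 CPM). The equal values of MDK and ENSDARG00000103130, and of hsp70.3 and zgc:112146, come from equal counts in this library. Among the other libraries at 12 h, ugt5b3 was high in replicate 1 (1.46 CPM).

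At 24 h, replicate 1 was apart for NIPAL4 (8.12 CPM), BZW1 (70.9 CPM), zgc:92040 (5.02 CPM) and fxyd3 (13.5 CPM), and for the summed shares of exocrine pancreas markers (2.62%) and skeletal muscle markers (0.766%). Replicate 2 was apart for hbae3 (324 CPM), CARTPT (ENSDARG00000035852, 81.8 CPM), CDK1 (11.6 CPM) and the share of red blood cell markers (0.134%), replicate 3 for serpina7 (221 CPM) and ARG2 (564 CPM), and replicate 4 for fkbp11 (16.1 CPM), tmem110l (10.4 CPM) and GSR (92.8 CPM). The part of any of these libraries in a result was not tested beyond leaving each out.

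The change over time differed between KO APAP and KO DMSO for 22 genes in edgeR's test of the difference. The log2 differences below 0 were those of adamts13 (-4.43), c8b (-3.47), GADD45B (-3.38), COMTD1 (-3.27), RBP2 (-3.06) and GADD45G (-3.01), then of cox7a1 (-3.0002), GSTZ1 (-2.68), HGD (-2.58), ZFP36L1 (-2.48), si:ch211-288g17.4 (-2.45) and hbae3 (-2.40), and of IGFBP2 (-2.34), GAMT (-2.18), c8g (-2.17), aqp12 (-2.06) and ESD (-1.93). Those above 0 were KPNA2 (3.75), UBE2C (4.12), NIPAL4 (4.71), cdca3 (5.53) and cpo (7.08), and the sizes for NIPAL4 and cpo depend on the prior count. The gene cdca3 had few counts in KO APAP at both times.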

How the results depend on the processing

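Of 50 genes called with all libraries, DESeq2 called 50 again, RLE scaling 47, the robust fit 47, no filter 41, the replicate block 40, limma voom 34, the fit without the 3 libraries with the fewest genes 32 and the fit of the 8 libraries alone 7; none reversed. Against 50 called genes (9 higher, 41 lower), the count was 314 (102 and 212) with DESeq2, 105 (42 and 63) with limma voom, 212 (57 and 155) without a filter, 102 (25 and 77) at a mean log2 CPM of at least 3, and 12 (6 and 6) in the 8 libraries alone. It was 83 (26 and 57) in the 8 libraries alone less KO APAP 12 h replicate 2 and 132 (50 and 82) with DESeq2 without it, both chosen after seeing the data. Without the 3 libraries with the fewest genes it was 48 (16 higher). The share higher was 18% of all calls, 32.48% with DESeq2, 40% with limma voom, 50% in the 8 libraries alone and 33.33% without the 3 libraries. Leaving out 1 library gave 13 to 93 called, 4 to 20 higher and 9 to 78 lower: 93, 34, 80 and 71 without 12 h replicates 1 to 4 and 16, 19, 13 and 26 without 24 h replicates 1 to 4. The median of all tested genes moved between 0.01 without 12 h replicate 2 and 0.36 without 12 h replicate 1.

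For the difference from KO DMSO (22 called), the count was 110 with DESeq2, 121 with limma voom, 133 without a filter, 36 with the robust fit, 52 without the 3 libraries and 121 with DESeq2 less replicate 2. Leaving out 1 library gave 5 (KO DMSO 24 h replicate 4) to 61 (KO APAP 12 h replicate 1), with 6, 12 and 10 without KO APAP 24 h replicates 1 to 3 and 9 without KO DMSO 12 h replicate 1 or 2 or 24 h replicate 3. For the difference from WT APAP (0 called), it was 6 with DESeq2, 30 without a filter, 1 at the higher minimum and 0 to 2 with 1 library left out. Under the replicate block the counts were 42 (11 and 31), 28 and 0. Same-numbered KO APAP libraries correlated at -0.0515 to 0.081, and 1 of 8 correlated best with its own number. The cause of these shifts was not tested.

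The log2 fold changes that turned sign were all of uncalled genes. With limma voom these were HSP90AA1 (-0.15), NQO1 (0.055), NFE2L2 (-0.14) and ECI1 (-0.091), and with the replicate block nfe2l2b (0.025). Without the 3 libraries they were UBE2C (-0.038), NFE2L2 (-0.16), ugt5b3 (-0.0402) and ECI1 (-0.17). In the 8 libraries alone less replicate 2 they were CYP7A1 (0.0051), UBE2C (-0.044), NFE2L2 (-0.16) and ECI1 (-0.18). With DESeq2 less replicate 2 they were UBE2C (-0.0561), NFE2L2 (-0.18), ugt5b3 (-0.0564) and ECI1 (-0.20). With 1 library left out the range was -0.0382 to 0.82 for UBE2C, -0.96 to 0.74 for nfe2l2b, -0.39 to 0.031 for NQO1, -0.16 to 0.34 for NFE2L2, -0.97 to 0.024 for JUNB (ENSDARG00000104773), -0.69 to 0.15 for CARTPT (ENSDARG00000070930), -0.0400 to 2.62 for ugt5b3, -0.17 to 0.31 for ECI1 and -0.57 to 0.30 for ATF3.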

Other observations

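Some lists leaned to one side in KO APAP without holding many called genes. Among all tested genes 40.7% had a fold change below 0, with a median log2 fold change of 0.21 with all libraries and 0.01 without KO APAP 12 h replicate 2. The fold change was below 0 for 37 of 47 skeletal muscle markers, with medians of -0.51 and -0.64, and for 55 of 80 genes of the respiratory chain, with medians of -0.25 and -0.15. It was below 0 for 50 of 74 genes of import into the endoplasmic reticulum and folding, with medians of -0.39 and -0.45, and for 21 of 28 complement genes. It was below 0 for 14 of 47 proteasome genes. Their median was 0.19 with all libraries, close to that of all tested genes, and 0.27 without KO APAP 12 h replicate 2. These counts were not tested, and members of a list are not independent. In KO DMSO the medians were -0.60 for skeletal muscle markers, -0.26 for import and folding and -0.43 for the proteasome. They were 0.08 for the respiratory chain and 0.57 for complement there, beside -0.08 over all tested genes. In WT DMSO skeletal muscle markers had a median of -0.42 and import and folding -0.46, beside -0.06 over all tested genes.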
